A study of Mus musculus with 4 samples.

Results

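The 10 genes described here mark primitive endoderm and the parietal endoderm that grows from it: the transcription factor genes *Sox17*, *Sox7*, *Gata4*, *Gata6* and *Foxa2*, the basement membrane genes *Lama1*, *Lamb1*, *Col4a1* and *Col4a2*, and the endocytic adaptor gene *Dab2*. They were chosen by name, 10 of the 55602 genes in the count table, and because the wild-type replicates differed about 3-fold in the raw counts of *Gata4*, *Gata6* and *Foxa2*. All 10 passed the filter on low counts. RNA was sequenced from JB1 cells, hybrid mouse embryonic stem cells (ESCs) whose mother was of the JF1 strain and father C57BL/6, after 12 days of neural differentiation with 1 µM cyclopamine, a hedgehog pathway inhibitor, from day 2 to day 10. There were 2 wild-type and 2 *Zfp57*-/- libraries, and ZFP57 is the zinc finger protein that keeps DNA methylation at imprinting control regions. The study's methods call the libraries of a genotype biological duplicates. All 4 libraries share the hybrid background and the cyclopamine, and the *Zfp57*-/- cells are a single JB1-derived line. Differences between genotypes are therefore differences between 2 cell lines as well.

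Primitive endoderm is the extraembryonic layer that separates from the epiblast in the blastocyst, under FGF signalling, and GATA6, GATA4, SOX17 and SOX7 are its transcription factors. Its parietal derivative lays down Reichert's membrane, a thick basement membrane of laminin and type IV collagen, and its visceral derivative takes up nutrients through receptors that DAB2 sorts into clathrin-coated pits. None of the 10 genes is made by endoderm alone. *Sox17* and *Sox7* are also active in endothelium, *Gata4* and *Gata6* in heart, *Foxa2* in floor plate and definitive endoderm, and laminin and collagen IV chains in most cells that rest on a basement membrane.

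Total counts per library were between 7663520 and 10337082, with the fewest in wild-type replicate 1. *Zfp57* itself had 48.5 and 23.8 CPM (counts scaled to 1000000 per library, with TMM-adjusted library sizes) in the wild-type libraries and 16.9 and 14.7 CPM in the *Zfp57*-/- libraries, a log2 fold change of -1.19 ± 0.32 (SE, adjusted p = 0.0224 by edgeR's quasi-likelihood test). The counts take in exons outside the deletion, so they check the labels only in part. Wild-type replicate 1 stood apart from the other 3 libraries in *Actb*, the cytoskeletal actin gene often used as a reference, which had 1811 CPM there against 3593 CPM in wild-type replicate 2 and 3762 and 4010 CPM in the *Zfp57*-/- libraries. Of the 12 neural progenitor and neuron markers, 9 were lower in *Zfp57*-/- cells and 0 were higher, with summed levels of 2574 and 3101 CPM in wild-type and 1066 and 1041 CPM in *Zfp57*-/- libraries. Among them were *Dcx* with a log2 fold change of -6.42, *Map2* with -4.23 and *Hes5* with -5.16. Of the 10 pluripotency markers, 8 were higher and 0 lower, and their sum went from 169 and 260 CPM to 1701 and 1571 CPM. Over all 19995 genes tested, 13% were higher and 14.6% lower. The stem cell genes *Pou5f1*, *Tdgf1* and *Tdh* had 1 and 6, 0 and 2, and 3 and 3 counts in the wild-type libraries and between 2153 and 2747 counts in the *Zfp57*-/- libraries, and *Nanog* was at 0 in both wild-type libraries.

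The basement membrane genes were by far the most abundant of the 10. Levels between genes are compared here as RPKM, the CPM per kilobase of exon. *Col4a1*, which encodes the α1 chain of collagen IV, stood first with 635 ± 220 RPKM in wild-type cells and 1059 ± 290 RPKM in *Zfp57*-/- cells (SD, n = 2 each). *Col4a2*, its α2 partner, followed with 361 ± 102 and 562 ± 172 RPKM, then *Lama1*, the laminin α1 chain, with 318 ± 72.2 and 530 ± 127 RPKM, and *Lamb1*, the laminin β1 chain, with 200 ± 55.7 and 303 ± 70.8 RPKM. The ranges of *Col4a2* and *Lama1* overlapped in both genotypes, so their order is not settled by these libraries. The factors were lower. *Gata4* had 29.0 ± 16.7 RPKM in wild-type and 45.9 ± 10.6 RPKM in *Zfp57*-/- cells, *Sox17* 22.4 ± 10.1 and 33.4 ± 6.83, *Foxa2* 14.98 ± 8.41 and 25.3 ± 7.34, and *Gata6* 11.9 ± 7.30 and 15.6 ± 3.00 RPKM. *Dab2*, at 18.3 ± 7.89 and 41.2 ± 9.01 RPKM, lay among them. In wild-type cells *Gata4*, *Sox17*, *Dab2*, *Foxa2* and *Gata6* each overlapped the next of them in the order, and in *Zfp57*-/- cells *Foxa2* and *Gata6* did not. *Sox7* was last, at 4.45 ± 0.134 and 2.25 ± 0.0780 RPKM, and did not overlap any other gene. The 10 genes together held 1.05% and 1.58% of all counts in wild-type replicates 1 and 2, and 1.64% and 2.31% in *Zfp57*-/- replicates 1 and 2.

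Windows before a transcription start are shown for *Dab2*, the gene that rose between genotypes, for *Lamb1*, a laminin gene, and for *Foxa2*, a factor whose wild-type replicates differed. RefSeq sequences (GRCm38.p6) before a start were at hand for 5 of the 10 genes, with 8 starts, and positions are from the start. *Dab2* is read from chr15:6299539-6299787 on the plus strand, *Lamb1* from chr12:31265043-31265233 on the plus strand and *Foxa2* from chr2:148046970-148047219 on the minus strand, each 5′ to 3′ and each ending before the first annotated exon. Capitals mark matches to a GATA motif in *Dab2* (TGATAA), to the CCAAT box in *Lamb1* and, on the other strand, in *Foxa2* (ATTGG), and to the GC box on the other strand in *Lamb1* (CCGCCC).
Dab2: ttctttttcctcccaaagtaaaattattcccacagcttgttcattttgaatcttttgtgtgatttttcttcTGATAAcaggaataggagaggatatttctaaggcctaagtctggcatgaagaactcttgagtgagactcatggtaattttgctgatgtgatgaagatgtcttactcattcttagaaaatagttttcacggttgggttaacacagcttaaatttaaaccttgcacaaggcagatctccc
Lamb1: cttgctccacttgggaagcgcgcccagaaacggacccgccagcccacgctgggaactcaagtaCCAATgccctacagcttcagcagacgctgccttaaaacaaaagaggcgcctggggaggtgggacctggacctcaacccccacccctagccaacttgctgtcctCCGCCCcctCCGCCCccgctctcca
Foxa2: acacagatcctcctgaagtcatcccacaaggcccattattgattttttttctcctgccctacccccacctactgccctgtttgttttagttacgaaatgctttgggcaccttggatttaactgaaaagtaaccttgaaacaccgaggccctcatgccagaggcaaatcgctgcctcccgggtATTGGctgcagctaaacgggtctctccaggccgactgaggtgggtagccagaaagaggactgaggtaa
The GATA motif was searched as AGATAA or TGATAA, or with a final G as AGATAG or TGATAG, on both strands of the 250 bases before a start. It was found 179 bases before the first *Dab2* start and 183 bases before another *Foxa2* start, and in 26.5% of all 32851 windows. The SOX motif ACAAT was found before 0 of the 8 starts and in 27.7% of all windows, the CCAAT box (CCAAT) in 33.8% and the GC box (GGGCGG) in 32.7%. *Col4a1* and *Col4a2* lie head to head on chromosome 8, with annotated starts on opposite strands at 11312826 and 11312805, so that their first exons overlap by 22 bases. None of the matches marked above overlaps another, and a match of letters does not show that a factor binds there.

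**Figure D1:**
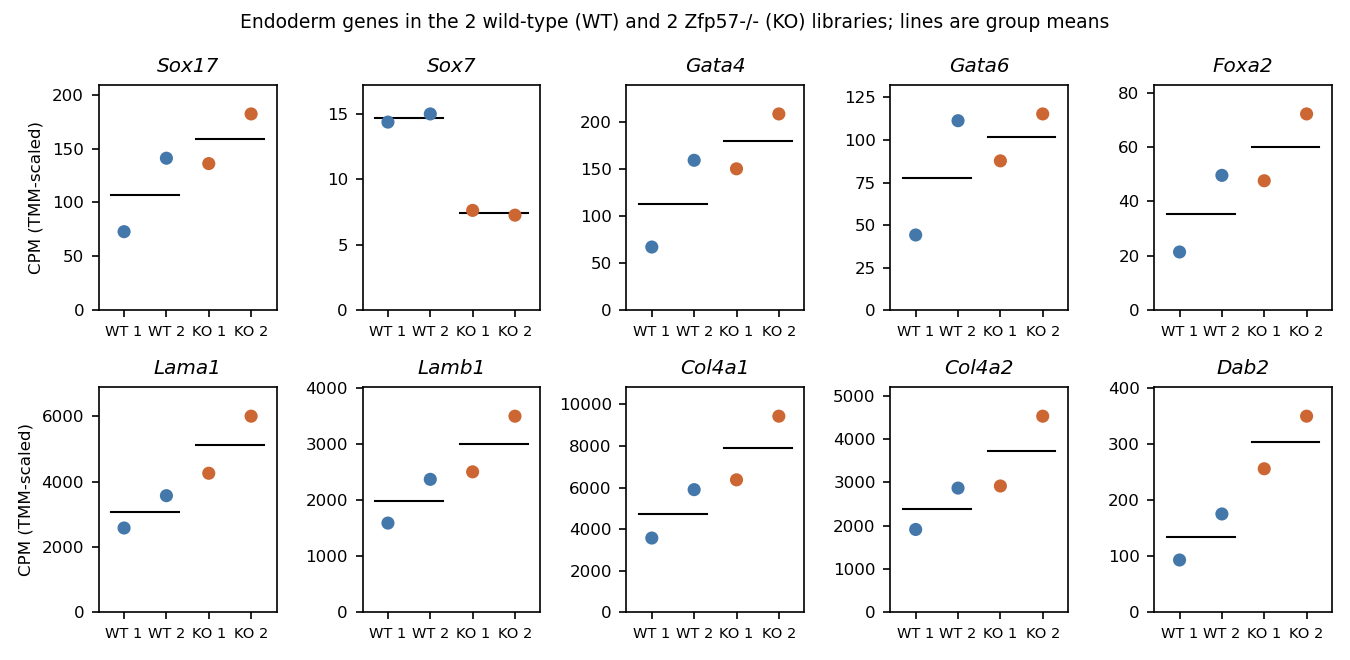
Level of each gene in CPM (y axis, from 0, own scale in each panel) in the 2 wild-type (blue) and 2 *Zfp57*-/- (orange) libraries on the x axis, with the group means as lines. Wild-type replicate 1 is the lowest library for 9 of the genes, while *Sox7* is the one gene with both *Zfp57*-/- libraries below both wild-type libraries.

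The wild-type replicates differed for nearly the whole group. In raw counts, *Gata6* had 357 in wild-type replicate 1 and 1167 in replicate 2, *Gata4* 542 and 1669, and *Foxa2* 173 and 520, which are ratios of 3.27, 3.08 and 3.01. *Foxa2* was the gene just inside 3-fold and *Sox17*, with 589 and 1479 counts and a ratio of 2.51, the one just outside. These ratios entered the choice of genes and are given as a description. Part of them was library size: in CPM the ratios were 2.52 for *Gata6*, 2.37 for *Gata4*, 2.32 for *Foxa2*, 1.94 for *Sox17* and 1.88 for *Dab2*. The basement membrane genes differed less, by 1.38 for *Lama1*, 1.49 for *Lamb1*, 1.499 for *Col4a2* and 1.65 for *Col4a1*, and *Sox7* was level at 1.04. Replicate 2 was thus the higher library for 10 of 10 genes, 3 of which were chosen by this difference. The count is therefore not read against the 63% found among the 10149 genes with at least 50 counts in every library. At least 2-fold was reached by *Gata4*, *Gata6* and *Foxa2*, the 3 genes whose difference entered the choice, so that nothing is read from the 1.58% of all genes that also reached it. In *Zfp57*-/- cells replicate 2 was higher for 9 of 10 genes, against 56.4% of all genes, and 0 of the 10 reached 2-fold, as did 0.0394% of all genes. The ratios there ran from 0.952 for *Sox7* to 1.55 for *Col4a2*, with a median of 1.39. In wild-type cells the median was 1.76, but it takes in the 3 genes chosen by their wild-type ratio, so the medians are not compared.

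Ranked among the 10149 genes by the ratio between replicates, the basement membrane genes stood higher in *Zfp57*-/- cells than in wild-type cells. Their ratios themselves did not rise together. From wild-type to *Zfp57*-/- cells they went from 1.38 to 1.41 for *Lama1* and from 1.499 to 1.55 for *Col4a2*. For *Lamb1* they went from 1.49 to 1.396 and for *Col4a1* from 1.65 to 1.48. The log2 ratios of all genes were less spread in *Zfp57*-/- cells, with an SD of 0.22 against 0.47. A higher percentile is therefore not read as a larger difference between replicates. In wild-type cells *Lama1*, *Lamb1* and *Col4a2* lay at percentiles 79.3, 86.6 and 87.1, *Col4a1* at 93.5, *Dab2* at 97.4 and *Sox17* at 97.9. The 3 genes whose difference entered the choice are left out of this wild-type ranking. In *Zfp57*-/- cells *Col4a2* stood highest, at 99.3, and 9 of the 10 genes, these 3 included, lay at 95.3 or above. *Dab2* and *Sox17*, at 96.9 and 96.3, were below their wild-type percentiles. *Sox7* was in the body of all genes in both, at 42 and 30.3. Scaling to *Actb*, whose level also differed between the wild-type replicates, gave a median ratio of 0.887 for the 10 genes in wild-type cells. Each value sets 1 library against 1, so no test applies. Fewer endoderm-like cells, less RNA per cell and a difference between the libraries as such cannot be told apart in bulk RNA.

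**Figure D2:**
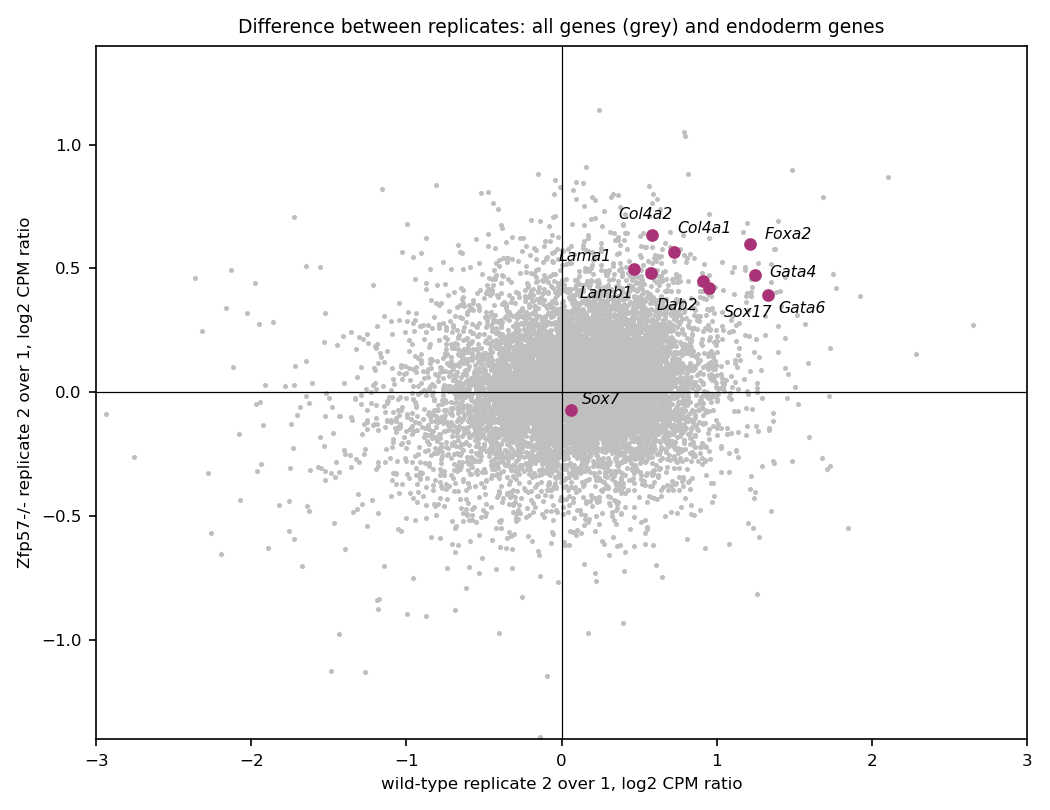
Replicate 2 over replicate 1 as a log2 ratio of CPM, in wild-type cells (x axis) and *Zfp57*-/- cells (y axis), for the 10149 genes compared (grey, 1 of them outside the axes), of which the 10 endoderm genes are in purple. All but *Sox7* lie to the upper right, and *Gata4*, *Gata6* and *Foxa2* lie past 1, which is 2-fold, on the wild-type axis.

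The comparison of genotypes asks whether loss of *Zfp57* changed how far the cultures formed endoderm alongside neural cells. *Dab2* was the 1 gene of the 10 that rose and *Sox7* the 1 that fell, while the other 8 did not pass the test. Over all 19995 genes tested, 13% were higher and 14.6% lower, 27.6% in all, so 1 of 10 in each direction and 2 of 10 in all are close to the background. The median log2 fold change of the 10 genes was 0.65, against -0.01 over all genes, and 9 of the 10 values were above 0. The median was 0.28 without wild-type replicate 1, 1.13 without wild-type replicate 2, 0.91 without *Zfp57*-/- replicate 1 and 0.39 without *Zfp57*-/- replicate 2.

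*Dab2* had 93.3 and 175 CPM in the wild-type libraries and 256 and 349 CPM in the *Zfp57*-/- libraries. Both *Zfp57*-/- libraries were above both wild-type libraries, and the log2 fold change was 1.17 ± 0.29 (SE, adjusted p = 0.0158, edgeR), with a 95% interval from 0.51 to 1.83. Without *Zfp57*-/- replicate 2 the adjusted p was 0.0787 by edgeR. *Sox7*, a SOXF factor as is *Sox17*, went the other way, with 14.4 and 14.98 CPM in wild-type and 7.62 and 7.25 CPM in *Zfp57*-/- libraries. Both *Zfp57*-/- libraries were below both wild-type libraries, as for 32.6% of all genes tested, and its log2 fold change was -0.98 ± 0.28 (SE, adjusted p = 0.0268, edgeR). It rests on 71 counts in each *Zfp57*-/- library, and without one or the other of these the adjusted p was 0.230 or 0.263 by edgeR.

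The 4 basement membrane genes shared one pattern. *Lama1* had 2581 and 3570 CPM in wild-type and 4255 and 6000 CPM in *Zfp57*-/- libraries, and *Lamb1* had 1594 and 2375 CPM and then 2508 and 3502 CPM. *Col4a1* had 3577 and 5903 CPM in wild-type and 6375 and 9435 CPM in *Zfp57*-/- libraries, and *Col4a2* had 1914 and 2868 CPM and then 2916 and 4527 CPM. For each of the 4, both *Zfp57*-/- libraries were above both wild-type libraries. With *Dab2* this makes 5 of the 10 genes, against 33.7% of all genes tested. The log2 fold changes were between 0.60 for *Lamb1* and 0.74 for *Lama1* and *Col4a1*, with adjusted p between 0.0515 and 0.111 by edgeR. The narrowest gap was that of *Col4a2*, whose lower *Zfp57*-/- library exceeded the higher wild-type library by 0.02 on the log2 scale.

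The other 4 factors overlapped between genotypes. *Gata4* had 67.1 and 159 CPM in wild-type and 150 and 208 CPM in *Zfp57*-/- libraries, a log2 fold change of 0.66 with a 95% interval from -0.12 to 1.44. *Sox17* had 72.9 and 141 CPM and then 136 and 182 CPM, a log2 fold change of 0.57. *Foxa2* had 21.4 and 49.6 CPM in wild-type and 47.6 and 72.2 CPM in *Zfp57*-/- libraries, a log2 fold change of 0.75, and *Gata6* had 44.2 and 111 CPM and then 87.7 and 115 CPM, a log2 fold change of 0.38. In each of the 4, wild-type replicate 2 was above *Zfp57*-/- replicate 1. Adjusted p was between 0.146 for *Foxa2* and 0.468 for *Gata6* by edgeR, and the interval for *Gata6* ran from -0.42 to 1.18, so a change of either sign is within it.

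**Figure D3:**
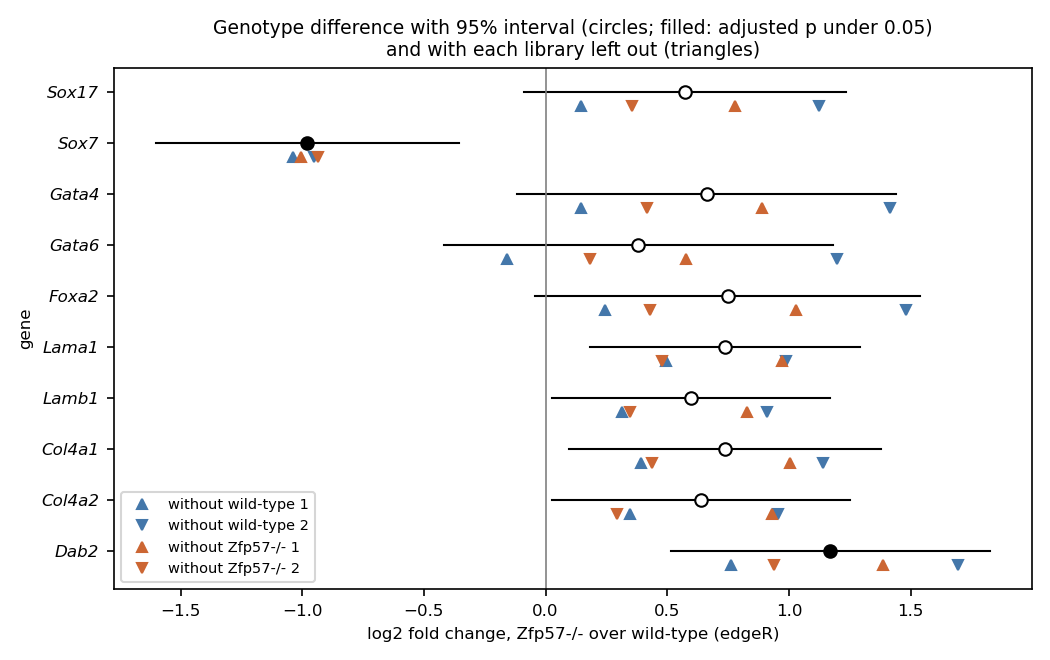
Log2 fold change of *Zfp57*-/- over wild-type cells (x axis) for each gene (y axis), with 95% intervals around circles that are filled where adjusted p was under 0.05, and the same value with each library left out as triangles. *Dab2* and *Sox7* are filled, and leaving out wild-type replicate 1 takes *Gata6* to -0.16.

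How many of the 10 genes passed the test depended on single libraries. In the fits with a single library left out, the number called over all genes moved as well. The count for the 10 is therefore not read as a result about them. Each of these fits takes the spread from the genotype that keeps both libraries, and the *Zfp57*-/- libraries lay closer together than the wild-type libraries. The SD of the log2 ratio between replicates over genes was 0.22 for *Zfp57*-/- and 0.47 for wild-type cells. With *Actb* as the scale, 0 of the 10 passed, and the median over all genes moved to -0.68 on the log2 scale. Relative to that median the 10 genes, at 0.08, were 0.76 higher, against 0.66 with TMM scaling, and the same difference ran from 0.25 without wild-type replicate 1 to 1.11 without wild-type replicate 2.

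The genes also differed in how alike their profiles were over the 4 libraries. As the root mean square difference of log2 CPM, each gene centred on its own mean, the nearest pairs were *Lamb1* and *Col4a2* at 0.06, *Gata4* and *Foxa2* at 0.06 and *Lama1* and *Lamb1* at 0.07. *Sox7* was 0.84 or more from every other member. The chains of one trimer kept near-constant proportions, though the nearest pair above, *Lamb1* and *Col4a2*, is of different trimers. *Lamc1*, which encodes the γ1 chain that joins the products of *Lama1* and *Lamb1* in laminin-111, was at 1.67, 1.66, 1.67 and 1.68 times the RPKM of *Lamb1* in wild-type replicates 1 and 2 and *Zfp57*-/- replicates 1 and 2. The ratio of *Lama1* to *Lamb1* was between 1.54 and 1.76, and that of *Col4a1* to *Col4a2* was 1.66, 1.83, 1.94 and 1.85. *Sox17* to *Sox7*, in contrast, went from 3.51 and 6.51 in the wild-type libraries to 12.4 and 17.4 in the *Zfp57*-/- libraries. Among 10139 other genes, those nearest to the mean profile of the 10 were *Bak1*, *B2m*, *Rab7*, *Fam129b* and *Pmepa1*, at a root mean square difference of 0.02 to 0.06 on the log2 scale. *Rab7*, for example, had 89.0 and 147 CPM in wild-type and 147 and 184 CPM in *Zfp57*-/- libraries.

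Other endoderm genes were taken from lists set by name. Their counts are to be read against 13% of all genes tested higher and 14.6% lower. Of 12 other endoderm transcription factors, 8 were higher in *Zfp57*-/- cells and 0 lower, with a median log2 fold change of 1.84. The 3 with the smallest adjusted p were *Eomes*, a T-box factor of mesendoderm, with 1.61 and 0.668 CPM in wild-type and 35.3 and 44.2 CPM in *Zfp57*-/- libraries, *Sall4*, shared by stem cells and primitive endoderm, with 61.4 and 90.2 and then 301 and 340 CPM, and *Hhex*, a homeobox factor of early endoderm, with 0.866 and 1.72 and then 11.05 and 10.1 CPM (adjusted p = 1.40e-05, 0.000169 and 0.00103, edgeR). With each library left out, 6 to 9 of the 12 were higher.

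Of 20 further primitive and parietal endoderm markers, 8 were higher and 0 lower, against 13% and 14.6% of all genes tested. The median of the 20 was 0.43. *Krt18* and *Krt8*, the keratin pair of simple epithelia, rose by 2.94 and 2.13 on the log2 scale and *Cubn*, the cubilin receptor, by 2.32 (adjusted p = 1.31e-05, 0.000721 and 0.000224, edgeR). *Sparc*, a collagen-binding matrix protein that parietal endoderm makes in quantity, rose by 1.26 and also differed between the wild-type replicates, at 727 and 1973 CPM against 2719 and 3757 CPM. The count was 10 higher and 5 lower without wild-type replicate 1, 15 and 2 without wild-type replicate 2, and 5 and 0 without *Zfp57*-/- replicate 2. Their summed level was 5420 and 8368 CPM in wild-type and 10091 and 13614 CPM in *Zfp57*-/- libraries. The other 4 that rose were *Tfpi*, *Krt19*, *Nid2* and *Amn*, by 1.59, 1.48, 1.13 and 2.06 on the log2 scale. The 12 that did not pass had log2 fold changes between -0.61 and 0.61. From lowest to highest, they were *Stra6*, *Pdgfra*, *Plat*, *Lrp2*, *Fst*, *Snai1*, *Srgn*, *Pth1r*, *Thbd*, *Hspg2*, *Nid1* and *Lamc1*.

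Of 16 visceral endoderm markers, 9 were higher and 0 lower, between 5 and 12 being higher and between 0 and 3 lower with a library left out. *Spink1*, a protease inhibitor, had 6.81 and 7.16 CPM in wild-type and 106 and 116 CPM in *Zfp57*-/- libraries. The signalling antagonists *Cer1* and *Lefty1* had 1 and 1 and 0 and 3 counts in wild-type and 148 and 177 and 226 and 145 counts in *Zfp57*-/- libraries. Of the secreted proteins in the list, *Apoe*, the apolipoprotein E gene, had 115 and 48.4 CPM in wild-type and 509 and 584 CPM in *Zfp57*-/- libraries, *Rbp4*, the retinol carrier, rose by 1.94 on the log2 scale, and *Trf*, the transferrin gene, had 0 and 0 and then 16 and 7 counts (adjusted p = 0.000409, 0.0111 and 0.0178, edgeR). *Afp* stayed at or under 4.51 CPM in every library and *Ttr*, at 115 and 26.3 and then 19.4 and 27.4 CPM, did not pass the test (adjusted p = 0.0977, edgeR). The other apolipoprotein genes of the list did not pass either. Their log2 fold changes were -1.08 for *Apoa1*, 0.56 for *Apoa4*, -0.03 for *Apob* and -0.06 for *Apom*. Of 10 definitive endoderm markers, 7 were higher and 1 lower, 4 of the 7 being also in the list of factors. The visceral and definitive counts stand beside 13% higher and 14.6% lower over all genes tested. *Trh* had 1.11 and 1.24 CPM in wild-type and 37.4 and 40.2 CPM in *Zfp57*-/- libraries, and *Cxcr4*, the receptor used to sort definitive endoderm, fell by 1.22 on the log2 scale (adjusted p = 0.00131, edgeR).

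The basement membrane did not move as one. Of 17 other laminin, collagen IV and basement membrane genes tested, 3 were higher and 6 lower, against 13% and 14.6% of all genes. The count was 6 and 5 without wild-type replicate 1, 7 and 8 without wild-type replicate 2, 3 and 4 without *Zfp57*-/- replicate 1 and 1 and 5 without *Zfp57*-/- replicate 2. *Lama3* and *Lamb3*, chains of the epithelial laminin-332, rose by 4.64 and 1.48 on the log2 scale and the linker *Nid2* by 1.13 (adjusted p = 6.00e-05, 0.0308 and 0.00275, edgeR). The collagen IV chains *Col4a5* and *Col4a6*, which form trimers of their own, fell, with log2 fold changes of -2.76 and -3.85, as did the laminin chain *Lamc3* with -4.64 (adjusted p = 1.68e-05, 9.85e-06 and 0.000192, edgeR). *Col4a6*, for instance, had 120 and 87.3 CPM in wild-type and 6.11 and 8.17 CPM in *Zfp57*-/- libraries, while *Col4a1* and *Col4a2* had values above 0 that did not pass the test. *Lamc1*, the partner of *Lama1* and *Lamb1*, had a log2 fold change of 0.61 that did not pass the test (adjusted p = 0.107, edgeR).

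Of 18 genes for collagen folding, secretion and crosslinking, 1 was higher, *Sparc*, and 3 were lower. These counts, and those of the FGF and PDGF genes below, stand beside 13% higher and 14.6% lower over all genes tested. The lower genes were the crosslinking enzyme *Loxl2* with a log2 fold change of -1.51 and the prolyl 3-hydroxylases *P3h3* and *P3h2* with -1.24 and -0.74. The count was 6 higher and 4 lower without wild-type replicate 2 and 0 and 1 without *Zfp57*-/- replicate 2. The collagen chaperone *Serpinh1* had 618 and 894 CPM in wild-type and 1025 and 1327 CPM in *Zfp57*-/- libraries (adjusted p = 0.0715, edgeR). Of 16 FGF and PDGF signalling genes, 8 were higher and 3 lower, and with a library left out 8 were higher and 2 to 6 lower, the most (6) without wild-type replicate 1. The ligands *Fgf4* and *Fgf5* had 6 and 6 and 2 and 4 counts in wild-type and 636 and 641 and 296 and 386 counts in *Zfp57*-/- libraries, and *Spry4*, a feedback inhibitor that FGF signalling induces, rose by 3.10 on the log2 scale (adjusted p = 0.000175, edgeR). The receptors *Fgfr2* and *Fgfr3* fell, with log2 fold changes of -2.56 and -1.37, as did the exchange factor *Sos1* with -0.73. *Pdgfra*, the receptor that marks primitive endoderm, had 374 and 311 CPM in wild-type and 187 and 288 CPM in *Zfp57*-/- libraries and did not pass the test (adjusted p = 0.126, edgeR).

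Of 15 DAB2 cargo receptors and clathrin adaptors, 3 were higher and 2 lower, against 13% and 14.6% of all genes. With a library left out, 1 to 8 were higher and 1 to 4 lower, the most without wild-type replicate 2 (8 and 4) and the fewest without one or the other *Zfp57*-/- library (1 and 1). *Cubn* and its partner *Amn*, the amnionless anchor, rose with *Dab2*, by 2.32 and 2.06 on the log2 scale (adjusted p = 0.000224 and 0.0364, edgeR). *Lrp1* fell by 1.32 on the log2 scale, and *Lrp2*, the megalin receptor that DAB2 also sorts, had 487 and 238 CPM in wild-type and 245 and 362 CPM in *Zfp57*-/- libraries and did not pass the test. *Dab1*, the neuronal relative of *Dab2*, fell by 0.76 on the log2 scale (adjusted p = 0.0301, edgeR).

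**Figure D4:**
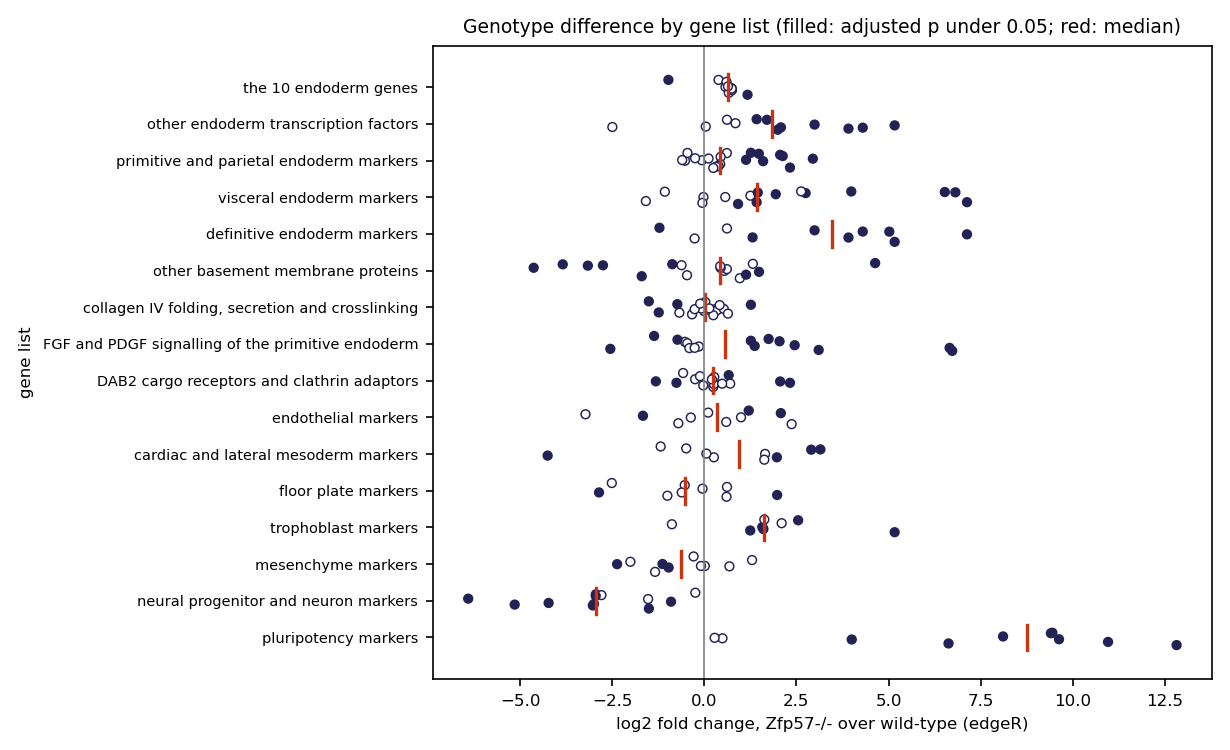
Log2 fold change of *Zfp57*-/- over wild-type cells (x axis) for the genes of each list (y axis), filled where adjusted p was under 0.05, with list medians in red. The 10 endoderm genes sit around 0.65 with 2 filled, while the pluripotency markers lie highest and the neural markers lowest.

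Markers of other cells that use the same genes are given beside them, and are to be read against 13% of all genes higher and 14.6% lower. Of 10 endothelial markers, 2 were higher (*Pecam1* and *Tek*) and 1 lower (*Kdr*), and their sum was 104 and 128 CPM in wild-type and 131 and 151 CPM in *Zfp57*-/- libraries. Of 10 cardiac and lateral mesoderm markers, 3 were higher (*Myh7*, *Tnnt2* and *Tbx20*) and 1 lower (*Tbx5*), with sums of 46.8 and 16.1 and then 146 and 153 CPM, and *Nkx2-5* was at 1 to 4 counts in every library. Of 9 floor plate markers tested, *Ntn1* was higher and *Corin* lower, with sums of 317 and 352 and then 369 and 417 CPM. *Shh*, the signal that floor plate secretes, had 9.16 and 31.2 and then 26.4 and 35.3 CPM, and *Nkx2-2* was at 0 in both *Zfp57*-/- libraries. Of 8 trophoblast markers tested, 5 were higher, led by *Eomes*, *Plet1* and *Tfap2c*, with sums of 19.1 and 42.1 and then 101 and 106 CPM. Of 10 mesenchyme markers, 0 were higher and 3 lower (*Prrx1*, *Twist1* and *Lum*), with sums of 914 and 400 and then 658 and 552 CPM. The mesenchyme count was 3 and 3 without wild-type replicate 1 and 0 and 8 without wild-type replicate 2. Without wild-type replicate 2 the endothelial count was 4 and 2, the cardiac count 3 and 2, the floor plate count 3 and 4 and the trophoblast count 6 and 0. Wild-type replicate 2 had the lower sum of the pair for the cardiac and mesenchyme lists and also for the visceral endoderm list, with 326 and 169 CPM in the wild-type libraries, where 5 of 16 genes were higher in replicate 2. The part of these cells in the levels of the 10 genes was not tested.

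Reads that overlap a strain difference show which parental copy was used. The maternal share is the JF1 share of such reads, and since the maternal copy is always JF1 in these cells, parent of origin and strain cannot be told apart. Allelic counts per library were between 2837013 and 3826604. In wild-type cells 6 of the 10 genes differed from an equal share, against 23.4% of 11079 autosomal genes, and in *Zfp57*-/- cells 5 did, against 21.8%. The share differed between genotypes for 4 of the 10, *Sox17*, *Gata4*, *Gata6* and *Lamb1*, against 14.4% of all genes. These backgrounds are not matched for read depth, and with more reads smaller departures can pass. Genes with as few as 10 allelic counts in each wild-type library were tested. Among the 10, *Col4a1* had 15489 to 49167 allelic reads per library and *Foxa2* 21 to 98.

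*Sox17* had a maternal share of 0.541 and 0.574 in the wild-type libraries and 0.686 and 0.695 in the *Zfp57*-/- libraries, a log2 difference in the allele ratio of 0.80 ± 0.17 (SE, adjusted p = 9.37e-05, edgeR). The 15 nearest genes with enough reads moved the same way, from a median share of 0.474 to 0.651. *Lamb1* went from 0.550 and 0.552 to 0.477 and 0.468, a log2 difference of -0.46 ± 0.06 (SE, adjusted p = 3.86e-11, edgeR), while its 15 neighbours had medians of 0.528 and 0.504. *Gata6* was the most maternal of the 10 in wild-type cells, at 0.657 and 0.710, and less so in *Zfp57*-/- cells, at 0.576 and 0.604 (log2 difference -0.65 ± 0.21 SE, adjusted p = 0.0194, edgeR). Over its neighbours the median went from 0.513 in the wild type to 0.469 in the *Zfp57*-/- line. *Gata4* went from 0.440 and 0.435 to 0.530 and 0.477 (log2 difference 0.37 ± 0.13 SE, adjusted p = 0.0408, edgeR), against neighbours whose median went from 0.505 to 0.427. *Sox17* and *Lamb1* passed the test with any 1 library left out, *Gata4* only without *Zfp57*-/- replicate 2, and *Gata6* did not pass without wild-type replicate 2 (adjusted p = 0.680, edgeR) or *Zfp57*-/- replicate 1 (0.0597). The half-width of the 95% Wilson interval of one library's share was at most 0.0794 for *Gata6*, 0.0590 for *Sox17*, 0.0511 for *Gata4* and 0.0102 for *Lamb1*, for counting error only.

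*Lama1* was above an equal share in both genotypes, at 0.573 ± 0.00630 and 0.574 ± 0.00690 (SD, n = 2 each). *Col4a1* lay slightly under an equal share, at 0.481 ± 0.00541 and 0.493 ± 0.00288, and *Col4a2* slightly over it, at 0.510 ± 0.00206 and 0.524 ± 0.0172. *Dab2*, the gene that rose, did not differ from an equal share by the test in either genotype, at 0.516 ± 0.000927 and 0.505 ± 0.0290. *Sox7* and *Foxa2* rest on 48 to 82 and 21 to 98 allelic reads per library. The mean share went from 0.464 in wild-type to 0.617 in *Zfp57*-/- cells for *Foxa2*, and from 0.482 to 0.584 for *Sox7*. Their log2 differences in the allele ratio were 0.79 ± 0.51 and 0.61 ± 0.47 (SE, adjusted p = 0.403 and 0.525, edgeR). The Wilson interval ran from 0.245 to 0.635 for *Foxa2* in wild-type replicate 1 and from 0.383 to 0.655 for *Sox7* in *Zfp57*-/- replicate 2. The estimate for *Foxa2* was about that of *Sox17*, but neither shift could be told from none at this depth.

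The difference between wild-type replicates was carried by both copies. As a ratio of allele counts over each library's allelic total, replicate 2 over replicate 1 was 2.39 for the maternal and 2.44 for the paternal copy of *Gata4*, 2.74 and 2.14 for *Gata6*, and 1.82 and 1.59 for *Sox17*. For *Dab2* it was 1.93 and 1.94 and for *Lama1* 1.39 and 1.34.

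**Figure D5:**
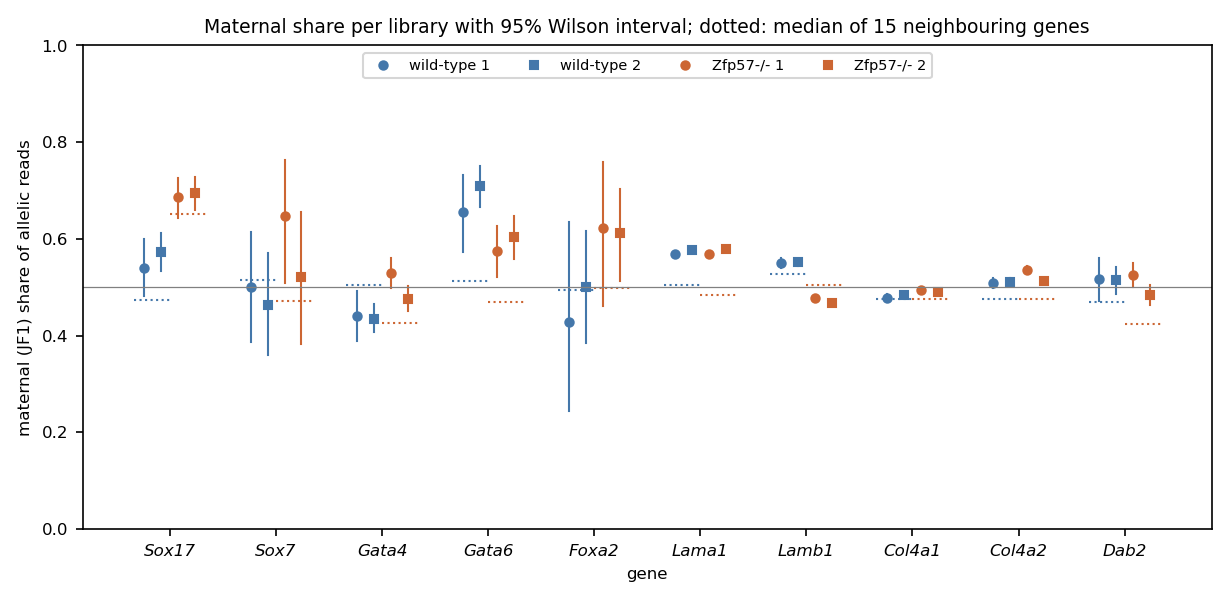
Maternal (JF1) share of allelic reads (y axis) for each gene (x axis) in the 4 libraries, with 95% Wilson intervals as bars and the median of 15 neighbouring genes as dotted lines. The bars of *Sox17* and *Lamb1* do not overlap between genotypes, some of those of *Gata4* and *Gata6* do, and the bars are widest for *Foxa2* and *Sox7*.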

How the data were processed

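RNA of 2 wild-type and 2 *Zfp57*-/- JB1 cultures was sequenced as stranded paired-end total RNA libraries depleted of ribosomal RNA. Per the study's methods and the submitters' processing notes, the authors used Trimmomatic 0.36 for trimming and STAR 2.5.4a for alignment to GRCm38, and deposited raw counts per gene of GENCODE vM20 from featureCounts (Subread 1.6.0), counted by strand. Antisense genes overlapping members were thus counted apart. The deposited allele counts are fragments that SNPsplit assigned to JF1 or B6 on a genome masked at strain differences. Total counts were 7663520 to 10337082 per library, and Wilson intervals of shares cover counting error only, while intervals of fold changes come from the edgeR fit and take in the spread between libraries.

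The members and lists were chosen with earlier results of these data known. Groups came from the sample labels. Symbols were matched by gene ID. Genes with more than 8 counts summed over libraries were compared with edgeR 4.0.16 in R 4.3.3 (robust quasi-likelihood test, TMM, Benjamini-Hochberg over 19995 genes, threshold 0.05). Allele counts of autosomal genes with at least 10 allelic counts in both wild-type libraries were tested with edgeR, in a model of library plus allele within genotype. Neighbours are the 15 nearest genes that had 10 or more allelic reads in all 4 libraries. RPKM divides CPM by exon length. The text names all 10 members, *Zfp57*, up to 3 called genes per list and direction with the smallest adjusted p, and the 5 nearest profiles. One gene that this rule names is not reported here. Other genes named from the lists, such as *Sparc*, *Ttr* or *Pdgfra*, and *Actb*, were chosen after their values were seen. The tests were checked on simulated data. Alternatives were DESeq2 1.42.0 at default settings, other scalings and filters, a replicate block, and each library left out. The labels do not say whether duplicates came from separate differentiations, so p-values measure the spread between these libraries, which may be technical.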

Additional observations from a re-analysis of the deposited data

Results flagged for a closer look

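The maternal share of 4 genes differed between genotypes by a test of the difference itself, as the log2 allele ratio in *Zfp57*-/- minus that in wild-type cells. The values were 0.80 for *Sox17*, 0.37 for *Gata4*, -0.65 for *Gata6* and -0.46 for *Lamb1* (adjusted p = 9.37e-05, 0.0408, 0.0194 and 3.86e-11, edgeR). *Sox17* moved with its 15 neighbours, whose median share went from 0.474 to 0.651, and *Gata4* moved against its neighbours, whose median went from 0.505 to 0.427. With DESeq2, *Lamb1* alone passed, and *Sox17* had an adjusted p of 0.0516 by DESeq2.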

How the results depend on the processing

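Of the 10 genes, 2 passed the test between genotypes, and this count rested on the setting. It was 4 with DESeq2, 0 with *Actb* as the scale, 9 with no filter on low counts, 10 with the replicate number as a block, and 0 to 10 with single libraries left out, where the lone library of a genotype is assumed to vary like the other genotype. The cause of the change without a filter was not tested. *Actb* as the scale also gave 3480 called genes against 5522, 486 of them higher and 2994 lower against 2607 and 2915, a median of 0.0787 for the 10 genes, a wild-type replicate ratio of 0.887, and reversed values of -0.0896 for *Gata6* and -0.000999 for *Lamb1*. *Gata6* was also reversed, at -0.16, without wild-type replicate 1, and reached 1.20 without wild-type replicate 2. With single libraries left out, called genes ranged from 2831 to 9947 and called genes of the pathway lists, 52 in all, from 39 to 83 (without wild-type replicate 2). Same-numbered libraries share only a number in the labels, and their deviations correlated at 0.14 over 11877 genes. The block fit called 6984 genes, which held all 5522.

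The count of genes whose maternal share differed between genotypes was 4, and it was 1 with DESeq2 and 2 to 4 with single libraries left out. In the block fit it was 3. Bias was called for 6 genes in wild-type and 5 in *Zfp57*-/- cells, for 3 and 3 with DESeq2, and for 3 to 6 in wild-type cells (3 without wild-type replicate 2) and 3 to 5 in *Zfp57*-/- cells (3 without *Zfp57*-/- replicate 2) with single libraries left out. Near-zero differences changed sign for *Lama1*, which ranged from -0.0234 without *Zfp57*-/- replicate 2 to 0.0342 without *Zfp57*-/- replicate 1 and was -0.0201 without wild-type replicate 1, and for *Dab2*, which ranged from -0.180 without *Zfp57*-/- replicate 1 to 0.0566 without *Zfp57*-/- replicate 2. With 2 libraries per genotype, 1 line per genotype and as few as 21 allelic reads for *Foxa2*, small differences were not detectable.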
